A study of Mus musculus with 77 samples.

Results

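The 9 genes described here encode proteins through which the liver answers to insulin and glucagon and makes or uses glucose. G6pc, Pck1 and Fbp1 are enzymes of gluconeogenesis, Pklr is an enzyme of glycolysis, Insr, Irs1 and Irs2 carry the insulin signal, Gcgr is the glucagon receptor and Ppargc1a is a transcriptional coactivator. They were chosen by name and found by symbol among the 55487 genes of the deposited count table. All 9 passed the filter on low counts, which kept 14904 genes, and the lowest count of any of them in any library was 29, for Ppargc1a.

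The study asked how semaglutide, a GLP-1 receptor agonist, acts in mice with diet-induced steatohepatitis (DIO-MASH), and RNA was sequenced from the left lateral liver lobe of 77 male C57BL/6JRj mice in 10 groups. The mice were 5 to 6 weeks old when the diets began, and the DIO-MASH mice had eaten the Gubra Amylin NASH diet, rich in fat, fructose and cholesterol, for 34 weeks before treatment. Semaglutide mice received 123 µg/kg subcutaneously once daily for 8, 16 or 24 weeks (n = 7, 8 and 8), chow reversal mice were returned to chow for 8, 16 or 24 weeks (n = 7, 8 and 8), vehicle mice stayed on the diet and received vehicle for 8, 16 or 24 weeks (n = 9, 8 and 7), and chow-fed mice never received the diet and were given vehicle for 24 weeks (n = 7). A liver biopsy had been taken from the mice before treatment, no genetic change is given for any group, and the labels give no injection for the chow reversal mice. The time of day and the feeding state at sampling are not given in the sources used here.

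In a fasted liver, glucagon acts through its receptor and cyclic AMP to raise transcription of Pck1 and G6pc, and PGC-1α, the product of Ppargc1a, takes part as a coactivator. Insulin acts through its receptor and the receptor substrates IRS1 and IRS2 to hold the same genes down, and glucose and insulin together raise Pklr. Transcript levels of Pck1 and G6pc change with feeding within hours, whereas enzymes such as FBP1 are also controlled by metabolites without any change in transcript.

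The promoters of the 3 gluconeogenic enzymes and of Pklr are shown because the results turn on these genes. Known hormone- and glucose-response elements lie close to the start sites of Pck1, G6pc and Pklr. Each line gives the 250 bases before the RefSeq start site (GRCm38.p6), on the strand of the gene, with the motifs that were searched for in capitals.
Pck1 (chr2:173152823-173153072, plus strand): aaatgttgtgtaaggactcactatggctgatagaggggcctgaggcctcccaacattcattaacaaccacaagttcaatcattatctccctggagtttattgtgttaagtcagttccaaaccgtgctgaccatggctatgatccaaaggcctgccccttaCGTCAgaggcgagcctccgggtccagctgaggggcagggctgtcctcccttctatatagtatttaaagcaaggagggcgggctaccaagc
G6pc (chr11:101367466-101367715, plus strand): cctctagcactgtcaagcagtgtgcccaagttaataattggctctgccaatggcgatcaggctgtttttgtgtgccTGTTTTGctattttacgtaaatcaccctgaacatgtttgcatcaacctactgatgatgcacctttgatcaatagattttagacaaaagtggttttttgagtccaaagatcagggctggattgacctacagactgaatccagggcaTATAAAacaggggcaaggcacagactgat
Fbp1 (chr13:62888283-62888532, minus strand): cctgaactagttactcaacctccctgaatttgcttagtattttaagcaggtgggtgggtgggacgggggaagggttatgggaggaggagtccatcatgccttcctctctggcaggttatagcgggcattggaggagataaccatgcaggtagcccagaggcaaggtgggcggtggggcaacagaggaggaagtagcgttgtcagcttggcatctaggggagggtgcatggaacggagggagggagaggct
Pklr (chr3:89136373-89136622, plus strand): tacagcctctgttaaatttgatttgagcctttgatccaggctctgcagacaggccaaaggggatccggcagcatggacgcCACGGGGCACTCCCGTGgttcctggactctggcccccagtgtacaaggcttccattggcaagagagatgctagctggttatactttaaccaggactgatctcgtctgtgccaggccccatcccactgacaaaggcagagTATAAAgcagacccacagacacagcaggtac

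The capitals mark matches, on either strand, to TGACG (the core of a cAMP response element), GTAAACA (a forkhead site), TGTTTTG (the core of an insulin response sequence), CACGTG (an E-box), the carbohydrate response element pattern (a pair of E-box parts) and TATAAA. The Pck1 window held CGTCA, which is TGACG on the other strand, at bases −90 to −86. The G6pc window held TGTTTTG at −174 to −168 and TATAAA at −29 to −24, and the gene annotation places the G6pc start inside this window. The Pklr window held the carbohydrate response element pattern at −170 to −154 and TATAAA at −31 to −26, and it belongs to the downstream of 2 listed starts of this gene. The Fbp1 window held none of the 6 motifs. Among 32851 mouse promoter windows of the same length, TGACG was found in 17.8%, GTAAACA in 3.17%, TGTTTTG in 5.56%, CACGTG in 6.02%, TATAAA in 12.4% and the carbohydrate response element pattern in 0.0396%. A promoter was listed for 8 of the 9 genes. Of the 4 genes not printed, Irs1 held a cAMP response core, an E-box and an insulin response core that overlap between −118 and −105 and another insulin response core at −32 to −26, Irs2 held an E-box at −44 to −39 and an insulin response core at −37 to −31, Ppargc1a held a cAMP response core at −49 to −45, and Gcgr held none. These matches describe letters only.

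Total counts per library were 8883154 to 37631091 (median 16406956), and levels are given as CPM, the count of a gene scaled to a common library size after TMM normalisation. In 1 semaglutide liver of 16 weeks (replicate 7), 5 skeletal muscle markers summed to 876.5 CPM, against 1.79 CPM in the next highest of all libraries. That library is 1 of 3 semaglutide libraries (16 weeks, replicates 7 and 8, and 24 weeks, replicate 8) whose library numbers lie apart from all others. Predicted genes (names of the Gm or Rik type) held 4.64%, 3.82% and 4.57% of their counts, against 3.19% in the highest other library. Their transcript length slopes, described below, were the lowest of the 77 (−0.24, −0.31 and −0.27). All 3 are semaglutide libraries, so at 16 and 24 weeks this difference is partly confounded with treatment. Results that change without these 3 libraries are given below. The summed level of 9 hepatocyte markers had medians of 86470, 80655 and 96234 CPM in semaglutide livers at 8, 16 and 24 weeks, 119198, 109977 and 106187 CPM in chow reversal livers, 60401, 63203 and 53606 CPM in vehicle livers and 121493 CPM in chow-fed livers. The summed level of 10 macrophage markers had medians of 678, 833 and 754 CPM in semaglutide livers, against 991, 1018 and 1329 CPM in vehicle livers, and of 9 stellate cell and fibroblast markers 254, 284 and 234 CPM, against 489, 455 and 537 CPM. In bulk tissue, fewer cells of a type and less RNA per cell cannot be told apart, and the part of these shifts in the results was not tested.

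Per kilobase of exon, the median level over the 77 livers was highest for Fbp1 (633 CPM per kb) and Pck1 (391), followed by Gcgr (95.9), Pklr (86.8), G6pc (38.2), Insr (6.54), Irs2 (2.43), Irs1 (1.39) and Ppargc1a (1.198). The genes differed in how far mice of the same group were spread. The coefficient of variation within a group was 4.06% to 14.01% for Fbp1 and 8.69% to 18.7% for Insr, against 39.3% to 128% for G6pc. Across all livers, G6pc ranged 17.6-fold, Pklr 9.07-fold and Pck1 7.80-fold, whereas Fbp1 ranged 1.81-fold.

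**Figure D1:**
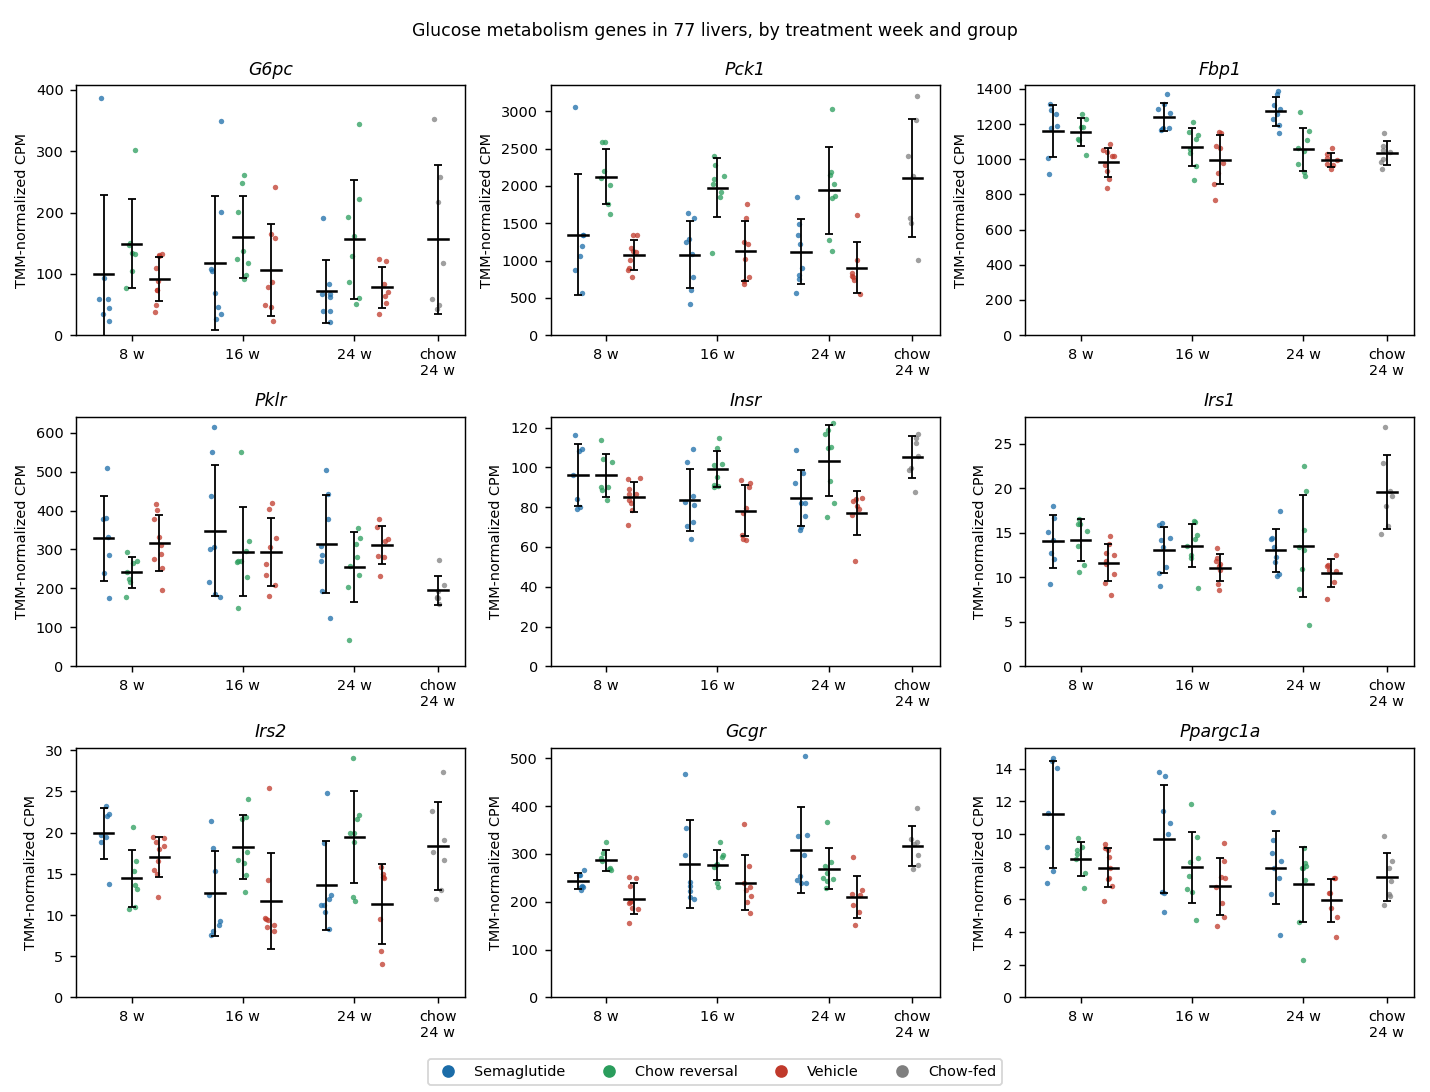
Levels of the 9 genes in 77 livers, in TMM-normalised CPM on a linear axis from 0; each point is 1 mouse, the long bar is the group mean and the whiskers are ± 1 SD (cut off at 0 for G6pc). Pck1 sits highest in chow reversal and chow-fed livers, Fbp1 highest in semaglutide livers of 16 and 24 weeks, and G6pc points spread from 22.0 to 387 CPM.

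With edgeR's quasi-likelihood test over all 14904 genes and an adjusted p under 0.05 as the threshold, semaglutide against vehicle changed 1 of the 9 genes at 8 weeks (5.62% of all genes changed), 1 at 16 weeks (12.2%) and 2 at 24 weeks (24.3%), all higher. Chow reversal against vehicle changed 3 at 8 weeks (32% of all genes), 3 at 16 weeks (28.1%) and 4 at 24 weeks (36%), also all higher. Semaglutide against chow reversal changed 0 at 8 weeks (6.16%), 1 at 16 weeks (9.72%) and 3 at 24 weeks (16.4%). At 8 weeks 1 gene of that last comparison had an unadjusted p under 0.05, and DESeq2 also called 0. The median log2 fold change of the 9 genes was 0.23, 0.22 and 0.30 for semaglutide and 0.24, 0.29 and 0.37 for chow reversal, both against vehicle, where the medians of all genes lay between −0.03 and 0.04. The 2 treatments share their vehicle mice at each time.

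**Figure D2:**
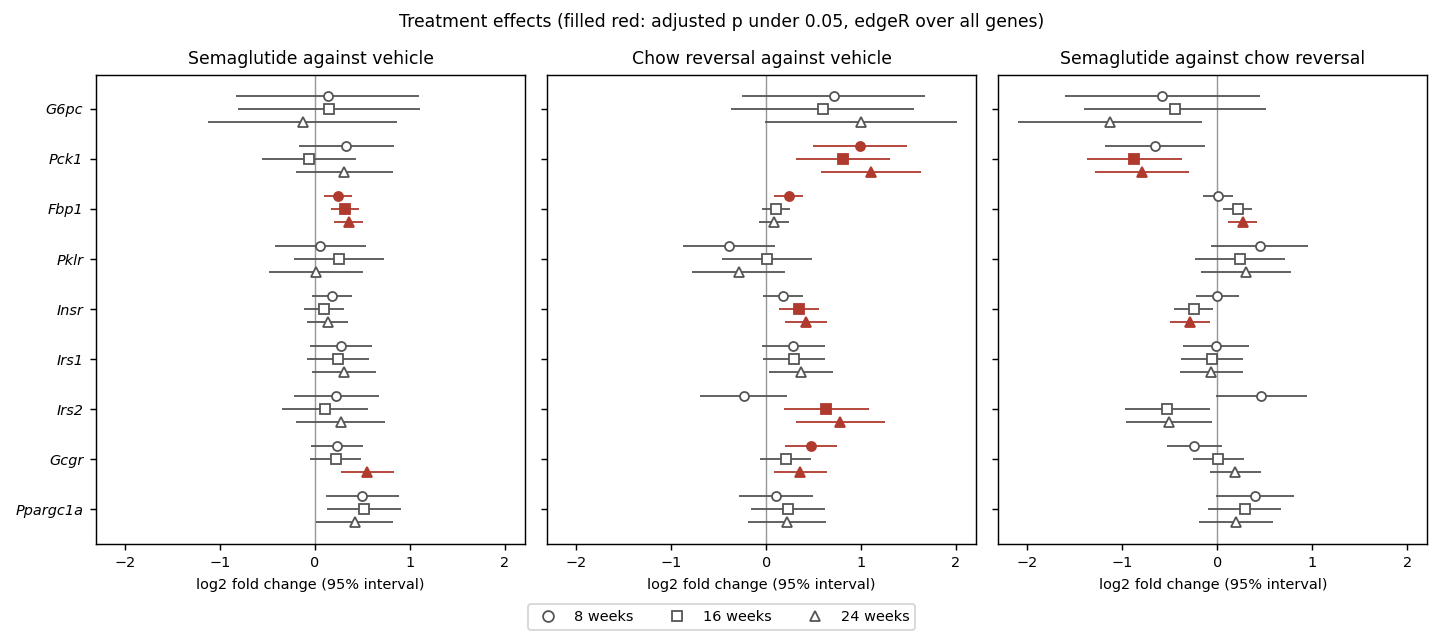
Log2 fold changes of the 9 genes with 95% intervals at 8 weeks (circles), 16 weeks (squares) and 24 weeks (triangles), with 1 panel for each treatment against vehicle and 1 for semaglutide set against chow reversal. Filled red symbols passed an adjusted p of 0.05; for semaglutide against vehicle these are Fbp1 at all 3 times and Gcgr at 24 weeks, and for chow reversal against vehicle Pck1 is red at all 3 times.

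Pck1, which encodes the cytosolic enzyme that commits oxaloacetate to glucose synthesis, was higher after chow reversal at all 3 times and did not pass the test under semaglutide. At 8 weeks the lowest, median and highest livers held 1629, 2100.3 and 2587 CPM after chow reversal, against 782, 1119 and 1346 CPM with vehicle, so the groups did not overlap. At 16 weeks these values were 1099.7, 2059.6 and 2401 CPM after chow reversal, against 692, 1126 and 1762 CPM with vehicle, and 7 of 8 chow reversal livers lay above every vehicle liver. At 24 weeks they were 1133, 1947 and 3035 CPM after chow reversal, against 557, 790.3 and 1613 CPM with vehicle. There, 6 of 8 chow reversal livers lay above every vehicle liver. The log2 fold changes were 0.99 (SE 0.25, adjusted p = 0.00146), 0.81 (SE 0.25, adjusted p = 0.00957) and 1.10 (SE 0.26, adjusted p = 0.000492), that is 1.98-fold, 1.75-fold and 2.15-fold. Scaled by library totals the 16-week call ended (log2 0.56, adjusted p = 0.0728), where the median of all genes was −0.26. Pck1 was 1 of 2 of the 9 genes whose chow reversal and vehicle livers did not overlap at 8 weeks, where 11.1% of all genes did not overlap.

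Semaglutide livers held 562, 1199 and 3065 CPM of Pck1 (lowest, median, highest) at 8 weeks, 411, 1169 and 1643 CPM at 16 weeks, and 568.05, 1059.8 and 1854 CPM at 24 weeks. They overlapped with the vehicle livers at every time, and the log2 fold changes were 0.33 (95% interval −0.17 to 0.83), −0.06 (−0.56 to 0.43) and 0.31 (−0.20 to 0.82). Set against chow reversal directly, Pck1 was lower under semaglutide at 16 weeks (log2 −0.87, SE 0.25, adjusted p = 0.0149) and 24 weeks (log2 −0.79, SE 0.25, adjusted p = 0.0212), where no semaglutide liver exceeded the chow reversal median. The 16-week call ended without semaglutide replicate 7, the liver with muscle transcripts (log2 −0.74, adjusted p = 0.0504), and without the 3 libraries numbered apart (log2 −0.76, adjusted p = 0.0733), and with a block for sets of library numbers (log2 −0.73, adjusted p = 0.0823). The 24-week call ended without chow reversal replicate 3 (log2 −0.67, adjusted p = 0.0654) and when the fit held only these groups (−0.78, adjusted p = 0.0735). At 8 weeks the difference was −0.66 (SE 0.27, adjusted p = 0.127), and without semaglutide replicate 5, the liver at 3065 CPM, it was −0.998 (adjusted p = 0.0103).

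G6pc, the catalytic subunit that releases free glucose from glucose 6-phosphate, passed no test in any of the 15 comparisons. Semaglutide livers held 22.5, 59.4 and 387 CPM at 8 weeks, 26.8, 87.1 and 349 CPM at 16 weeks and 22.0, 64.5 and 190.4 CPM at 24 weeks. Chow reversal livers held 76.2, 135 and 302 CPM, then 92.1, 130.2 and 262 CPM, then 51.5, 146 and 344 CPM at the same times. Vehicle livers held 37.04, 88.5 and 132 CPM, then 23.3, 83.0 and 241 CPM, then 34.5, 69.9 and 124 CPM. The ranges overlapped throughout, though 8 of 8 chow reversal livers lay above the vehicle median at 16 weeks and 6 of 8 at 24 weeks. The log2 fold change of chow reversal against vehicle was 0.71 (95% interval −0.25 to 1.67), 0.59 (−0.37 to 1.55) and 0.998 (−0.01 to 2.01), intervals that include no change and also a fold above 2. For semaglutide against vehicle it was 0.13 (−0.83 to 1.10), 0.15 (−0.81 to 1.11) and −0.13 (−1.13 to 0.86). Against chow reversal at 24 weeks, G6pc differed by −1.13 under semaglutide (SE 0.49, adjusted p = 0.0965), and without semaglutide replicate 6, the liver at 190.4 CPM, by −1.52 (adjusted p = 0.0297). With the length and GC slopes described below as covariates, chow reversal against vehicle passed at 24 weeks (log2 1.18, adjusted p = 0.0493).

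**Figure D3:**
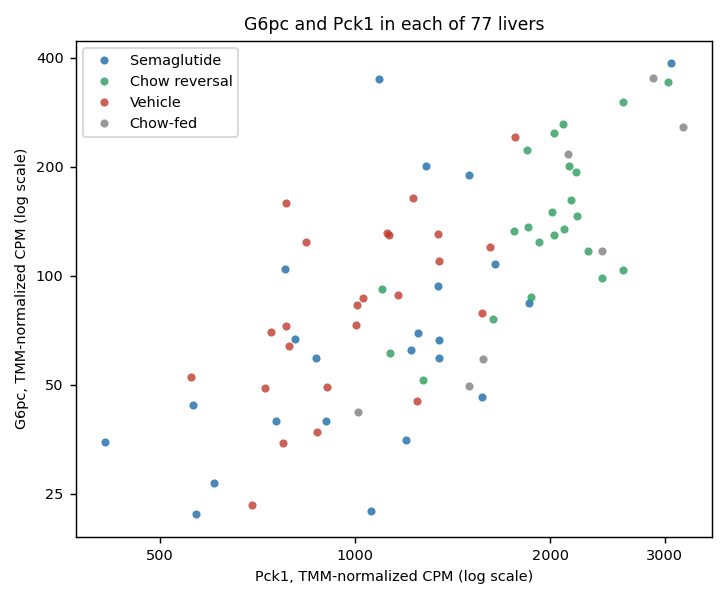
G6pc against Pck1 in each of 77 livers, both in TMM-normalised CPM on log axes, coloured by treatment with the times pooled. Livers high in Pck1 were mostly high in G6pc, and chow reversal livers fill the upper right while vehicle livers lie to the left.

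Mouse by mouse, G6pc and Pck1 moved together, as the plot of one against the other shows. Pearson's r of their log2 CPM was 0.71 over 77 mice and 0.68 after subtracting group means, given as a description because the values share library and tissue piece. Of all other genes tested, Tat, a tyrosine aminotransferase gene induced by glucocorticoids and fasting, was most like Pck1 (r = 0.83), and Ppp1r3b, which encodes a glycogen-targeting subunit of protein phosphatase 1, was most like G6pc (r = 0.75). Fbp1 had r of 0.12 with Pck1 and 0.03 with G6pc. The summed level of 17 circadian clock genes had medians of 769, 753 and 806 CPM in semaglutide livers, 872, 817 and 770 CPM in chow reversal livers and 677, 679 and 588 CPM in vehicle livers. Of these 17 genes, 0, 0 and 2 were higher under semaglutide (5.62%, 12.2% and 24.3% of all genes changed) and 3, 1 and 3 after chow reversal (32%, 28.1% and 36%) than with vehicle at the 3 times. None was lower in these comparisons, and their part in the Pck1 result was not tested.

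Fbp1, which encodes the liver fructose 1,6-bisphosphatase that opposes phosphofructokinase, was the only one of the 9 genes to pass as higher under semaglutide at all 3 times. At 8 weeks the lowest, median and highest livers held 915, 1191 and 1313 CPM under semaglutide, against 838, 1019 and 1085 CPM with vehicle, and 5 of 7 semaglutide livers lay above every vehicle liver. At 16 weeks they held 1167, 1221 and 1373 CPM under semaglutide, against 767, 1023 and 1153 CPM with vehicle. At 24 weeks they held 1148, 1272 and 1388 CPM under semaglutide, against 943, 995 and 1062 CPM with vehicle. At both later times the groups did not overlap, which held for 0.899% of all genes at 16 weeks and 4.12% at 24 weeks. In log2 units the changes were 0.24 (SE 0.08, adjusted p = 0.0409), 0.32 (SE 0.08, adjusted p = 0.00366) and 0.35 (SE 0.08, adjusted p = 0.000524), a rise of 1.18-fold, 1.246-fold and 1.28-fold. Pklr, Insr, Irs1, Irs2, Gcgr and Ppargc1a also had positive log2 fold changes under semaglutide at each time, without passing at all 3.

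Chow reversal livers held 1023, 1182 and 1256 CPM of Fbp1 at 8 weeks, 884, 1086 and 1210.2 CPM at 16 weeks and 902, 1056 and 1271 CPM at 24 weeks. Against vehicle Fbp1 was higher at 8 weeks (log2 0.24, SE 0.08, adjusted p = 0.0124) and did not pass at 16 weeks (0.10, 95% interval −0.05 to 0.25) or 24 weeks (0.08, −0.07 to 0.24). Semaglutide exceeded chow reversal by 0.27 at 24 weeks (SE 0.08, adjusted p = 0.00993) and by 0.21 at 16 weeks (SE 0.08, adjusted p = 0.0544). All 8 semaglutide livers lay above the chow reversal median at each of these times. At 8 weeks the 2 treatments did not differ past the threshold (log2 0.01, 95% interval −0.15 to 0.17). The 16-week difference passed with DESeq2 (0.22, adjusted p = 0.0196), RLE factors (0.22, adjusted p = 0.0446), library totals (0.30, adjusted p = 0.00289) and the length and GC slopes described below (0.20, adjusted p = 0.0419), and the 24-week one ended without the count filter (0.26, adjusted p = 0.0752) and with only the compared groups (0.28, adjusted p = 0.128). The change of the semaglutide effect between 8 and 24 weeks was 0.11 (95% interval −0.11 to 0.33). The 8-week semaglutide call ended when any of 8 livers was left out (semaglutide replicates 2, 4, 5 and 7, vehicle replicates 1, 4, 6 and 8), with log2 values of 0.21 to 0.24 and adjusted p of 0.0595 to 0.116. It also ended with the block for library sets (0.23, adjusted p = 0.0529) and without the count filter (0.26, adjusted p = 0.14), and the 16-week call ended with only the compared groups (0.33, adjusted p = 0.0944). Scaled by library totals instead of TMM, the log2 fold changes of semaglutide were 0.11, 0.14 and 0.12 and none passed, the 8-week chow reversal value turned to −0.04, and the median of all genes moved to −0.13, −0.18, −0.24 and −0.31 in the same 4 comparisons. In that scaling the 24-week chow reversal value turned to −0.22 and passed as lower (adjusted p = 0.0121), where the median of all genes was −0.26.

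Pklr, the liver and red cell pyruvate kinase at the last step of glycolysis, did not pass the test between any of the treated and vehicle groups. Semaglutide livers held 175, 332 and 510.1 CPM at 8 weeks, 177, 304 and 614 CPM at 16 weeks and 124, 298 and 505 CPM at 24 weeks. Vehicle livers held 195, 312 and 417 CPM, then 182, 285 and 419 CPM, then 233, 321 and 379 CPM, so semaglutide livers reached both higher and lower than vehicle livers at every time. The log2 fold changes were 0.05 (95% interval −0.42 to 0.53), 0.25 (−0.23 to 0.72) and 0.01 (−0.48 to 0.50). Chow reversal livers held 177, 243 and 295 CPM at 8 weeks and averaged 241 ± 39.6 CPM (SD, n = 7), against 317 ± 72.7 CPM with vehicle (n = 9), a log2 difference of −0.39 (−0.87 to 0.09). At 16 and 24 weeks that difference was 0.00 (−0.47 to 0.48) and −0.29 (−0.78 to 0.20). At 8 weeks it passed with only the compared groups (−0.38, adjusted p = 0.0282), and scaled by library totals it passed at 8 weeks (−0.67, adjusted p = 0.0284) and 24 weeks (−0.62, adjusted p = 0.0469). The genes most like Pklr over the 77 mice were Acaca (r = 0.80), Tbc1d31 (r = 0.76) and Elovl6 (r = 0.73), of which Acaca and Elovl6 encode enzymes of fatty acid synthesis and elongation.

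Insr, the insulin receptor gene, was higher after chow reversal at 16 and 24 weeks. At 16 weeks the lowest, median and highest livers held 90.3, 98.1 and 115 CPM after chow reversal, against 63.4, 78.4 and 93.5 CPM with vehicle. At 24 weeks they held 74.8, 109.8 and 122 CPM after chow reversal, against 52.9, 80.7 and 84.4 CPM with vehicle. Above every vehicle liver lay 5 of 8 chow reversal livers at 16 weeks and 6 of 8 at 24 weeks. The log2 fold changes were 0.34 (SE 0.11, adjusted p = 0.00888) and 0.42 (SE 0.11, adjusted p = 0.00149), after 0.18 at 8 weeks (SE 0.11, adjusted p = 0.197). Scaled by library totals these 2 calls ended (0.09 and 0.12, adjusted p = 0.59 and 0.5). With only the compared groups the 8-week value passed (0.18, adjusted p = 0.0448).

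Semaglutide livers held 78.9, 96.4 and 116 CPM of Insr at 8 weeks, 64.006, 81.8 and 109 CPM at 16 weeks and 68.7, 82.2 and 109 CPM at 24 weeks. Vehicle livers of 8 weeks held 71.005, 86.6 and 94.4 CPM, and semaglutide livers overlapped with vehicle livers at every time. The log2 fold changes were 0.18 (95% interval −0.03 to 0.39), 0.10 (−0.11 to 0.31) and 0.13 (−0.09 to 0.35). Against chow reversal Insr was lower under semaglutide at 24 weeks (log2 −0.29, SE 0.11, adjusted p = 0.0474). That call ended when any of 10 livers was left out (semaglutide replicates 1, 2, 4, 6 and 8, chow reversal replicates 1, 3, 4, 5 and 6), with log2 values of −0.25 to −0.28 and adjusted p of 0.0634 to 0.105. It also ended without the 3 libraries numbered apart (−0.26, adjusted p = 0.0759), with the block for library sets (−0.28, adjusted p = 0.0719), without the count filter (−0.30, adjusted p = 0.066), with library totals (−0.21, adjusted p = 0.236) and with only the compared groups (−0.28, adjusted p = 0.203).

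Irs1 and Irs2 encode the main docking proteins of the insulin receptor in liver. Irs1 passed no test between treated and vehicle livers: its log2 fold changes were 0.27, 0.24 and 0.30 for semaglutide and 0.29, 0.29 and 0.37 for chow reversal, with adjusted p between 0.0853 and 0.367. Irs1 levels at 24 weeks were 10.2, 12.9 and 17.5 CPM under semaglutide, 4.64, 13.3 and 22.5 CPM after chow reversal and 7.57, 10.8 and 12.5 CPM with vehicle. The chow reversal livers thus held both the lowest and the highest of these Irs1 values. Without any 1 of chow reversal replicates 4, 7 and 8, Irs1 passed at 24 weeks (log2 0.46, 0.43 and 0.49, adjusted p = 0.0303, 0.0431 and 0.00957).

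Irs2, the substrate whose transcript is raised by fasting in mouse liver, was higher after chow reversal at the 2 later times. At 8 weeks the lowest, median and highest livers held 10.7, 13.7 and 20.6 CPM after chow reversal, against 12.2, 17.97 and 19.5 CPM with vehicle, and the groups overlapped. At 16 weeks they held 12.8, 17.2 and 24.0 CPM after chow reversal, against 8.06, 9.44 and 25.4 CPM with vehicle. At 24 weeks they held 11.7, 20.0 and 29.04 CPM after chow reversal, against 4.01, 14.5 and 15.9 CPM with vehicle. All 8 chow reversal livers exceeded the vehicle median at 16 weeks, and 6 of 8 exceeded every vehicle liver at 24 weeks. In log2 units the differences were −0.24 (SE 0.23, adjusted p = 0.438), 0.63 (SE 0.23, adjusted p = 0.0268) and 0.78 (SE 0.24, adjusted p = 0.00642). The 16-week call ended without any of 6 livers (chow reversal replicates 3 and 6, vehicle replicates 1, 4, 6 and 7), with log2 values of 0.57 to 0.60 and adjusted p of 0.0512 to 0.0614. Scaled by library totals neither later time passed (0.38 and 0.47, adjusted p = 0.214 and 0.129).

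The chow reversal effect on Irs2 differed by 1.02 between 24 and 8 weeks (SE 0.33, unadjusted p = 0.00275), which did not pass over all genes (adjusted p = 0.212). In that test of a difference 0 of the 9 genes passed, Irs2 alone had an unadjusted p under 0.05, and 0.215% of all genes passed. In vehicle livers the log2 difference of 24 from 8 weeks was −0.59 for Irs2 and −0.41 for Ppargc1a (unadjusted p = 0.0125 and 0.0394), with 0 of the 9 genes past the adjusted threshold where 0.792% of all genes were. For the change of the semaglutide effect from 8 to 24 weeks, 0 of 9 passed, 0 had an unadjusted p under 0.05, and 0.0604% of all genes passed. DESeq2 also called 0 of 9 in these 3 comparisons. Semaglutide livers held 13.8, 19.7 and 23.2 CPM of Irs2 at 8 weeks, 7.57, 10.8 and 21.4 CPM at 16 weeks and 8.30, 11.6 and 24.8 CPM at 24 weeks. Their log2 fold changes from vehicle were 0.23, 0.11 and 0.27 (SE 0.22 to 0.24), and none passed. Against chow reversal they differed by 0.46, −0.52 and −0.51 (adjusted p of 0.249, 0.131 and 0.107), and without semaglutide replicate 3 at 16 weeks or replicate 7 at 24 weeks the difference passed (−0.68 and −0.69, adjusted p = 0.049 and 0.0271). With only the compared groups the 8-week difference passed (0.45, adjusted p = 0.028).

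Gcgr, the receptor through which glucagon acts on hepatocytes, was higher under semaglutide at 24 weeks and after chow reversal at 8 and 24 weeks. At 24 weeks the lowest, median and highest livers held 239.8, 276 and 504 CPM under semaglutide, 229.6, 255 and 367 CPM after chow reversal and 151, 214 and 293 CPM with vehicle. All 8 livers of each treatment exceeded the vehicle median, and 4 semaglutide livers and 1 chow reversal liver exceeded every vehicle liver. Log2 fold changes were 0.55 for semaglutide (SE 0.14, adjusted p = 0.00257) and 0.36 for chow reversal (SE 0.14, adjusted p = 0.0379). Gcgr fell with the transcript length slope of the library described below (r = −0.71 within groups). The median slope at 24 weeks was −0.04 in semaglutide livers and 0.05 in vehicle livers. With the length and GC slopes as covariates both calls stayed. That fit moved the log2 difference of semaglutide from chow-fed livers at 24 weeks from −0.04 to −0.31. The chow reversal call ended without any of 6 livers (chow reversal replicates 2, 3 and 4, vehicle replicates 4, 5 and 7), with log2 values of 0.29 to 0.37 and adjusted p of 0.0505 to 0.112. It also ended with RLE factors (0.35, adjusted p = 0.0554), without the count filter (0.39, adjusted p = 0.0618) and with only the compared groups (0.35, adjusted p = 0.0844). Scaled by library totals, chow reversal did not pass at 8 weeks (0.20, adjusted p = 0.126) or 24 weeks (0.06, adjusted p = 0.701).

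At 8 weeks the livers held 225, 234 and 267 CPM of Gcgr under semaglutide, 266, 286 and 326 CPM after chow reversal and 156, 200.3 and 251 CPM with vehicle. Every chow reversal liver lay above every vehicle liver, with a log2 fold change of 0.47 (SE 0.14, adjusted p = 0.00504), and all 7 semaglutide livers exceeded the vehicle median, with 0.23 (SE 0.14, adjusted p = 0.344). At 16 weeks the livers held 206, 238 and 468 CPM under semaglutide, 232, 278 and 325 CPM after chow reversal and 176, 228 and 363 CPM with vehicle, and the log2 fold changes of 0.22 and 0.21 did not pass. Semaglutide and chow reversal did not differ past the threshold, with differences of −0.24 (95% interval −0.53 to 0.05), 0.01 (−0.26 to 0.28) and 0.19 (−0.08 to 0.46). With only the compared groups Gcgr was lower under semaglutide at 8 weeks (−0.26, adjusted p = 0.017). An antisense gene, Gm11789, overlaps Gcgr and had 20814 counts over all libraries against 324209 for Gcgr, and whether strand was used in counting is not given in the sources used here.

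Levels of several of the 9 genes also went with a property of the library. For each library the slopes of log2 level on the length and GC content of each gene's longest transcript were computed together over 14884 genes. Levels were taken relative to the mean of all libraries. Gcgr (longest transcript 2502 bases) fell with the length slope, with r = −0.72 over the 77 mice and −0.71 within groups. Insr (9355 bases) and Irs2 (6323 bases) rose with it, with r = 0.45 and 0.51 overall and 0.69 and 0.59 within groups. Pklr (2902 bases) rose with it too, with r = 0.47 overall and 0.54 within groups. The other 5 genes had r of −0.35 to 0.20 overall. With the GC slope, Gcgr had r = 0.45 overall and 0.70 within groups. Insr, Irs2 and Ppargc1a had −0.55, −0.50 and −0.41 overall and −0.52, −0.43 and −0.43 within groups. The remaining genes had −0.27 to 0.06 overall. Median length slopes were 0.06, −0.04 and −0.04 log2 per SD of log2 length in semaglutide livers at 8, 16 and 24 weeks, −0.06, 0.01 and 0.03 in chow reversal livers, 0.10, 0.05 and 0.05 in vehicle livers and −0.01 in chow-fed livers. These correlations are descriptions over livers that share a preparation. With the length and GC slopes as covariates, an alternative chosen after seeing the data, Insr passed for semaglutide against vehicle at 8 weeks (log2 0.21, adjusted p = 0.0298) and 24 weeks (0.27, adjusted p = 0.00321) and for chow reversal at 8 weeks (0.37, adjusted p = 2.41e-05). In that fit Irs2 passed for semaglutide at 24 weeks (0.57, adjusted p = 0.0205), and Gcgr for semaglutide at 8 weeks (0.21, adjusted p = 0.0213) and for chow reversal at 16 weeks (0.28, adjusted p = 0.000419). Ppargc1a passed in it for semaglutide at 8 weeks (0.52, adjusted p = 0.0284) and 24 weeks (0.47, adjusted p = 0.0493). The same fit ended the semaglutide against chow reversal calls of 24 weeks for Insr (−0.12, adjusted p = 0.258) and Pck1 (−0.70, adjusted p = 0.052).

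**Figure D4:**
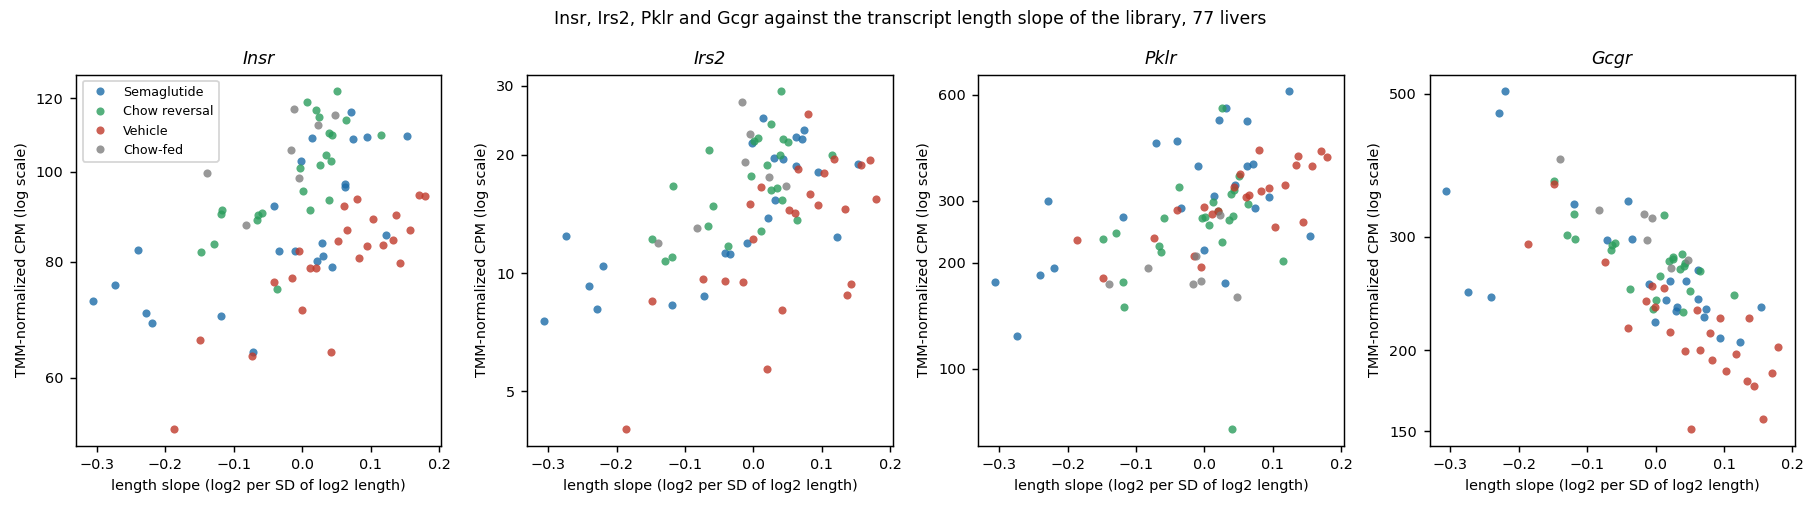
Levels of Insr, Irs2, Pklr and Gcgr (TMM-normalised CPM, log axis) in 77 livers against the transcript length slope of each library (log2 per SD of log2 length), coloured by treatment. Gcgr falls from left to right (r = −0.72) while Insr, Irs2 and Pklr rise (r = 0.45, 0.51 and 0.47).

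Ppargc1a, which encodes the coactivator PGC-1α, was the least abundant of the 9 genes per kilobase. The lowest, median and highest livers held 7.01, 11.3 and 14.7 CPM under semaglutide at 8 weeks, against 5.91, 7.90 and 9.41 CPM with vehicle. At 16 weeks they held 5.23, 10.3 and 13.8 CPM under semaglutide, against 4.36, 7.04 and 9.45 CPM with vehicle. At 24 weeks they held 3.85, 8.14 and 11.4 CPM under semaglutide, against 3.71, 6.36 and 7.33 CPM with vehicle. The groups overlapped at every time, with 4 of 7, 5 of 8 and 5 of 8 semaglutide livers above every vehicle liver. The log2 fold changes were 0.50, 0.52 and 0.42 (SE 0.19, 0.19 and 0.20), with unadjusted p of 0.0116, 0.0096 and 0.0443 and adjusted p of 0.109, 0.0651 and 0.126, so no time passed. At 8 weeks it passed with only the compared groups (0.51, adjusted p = 0.0313), and with the length and GC slopes it passed at 8 and 24 weeks, as given above. At 16 weeks DESeq2 did call it (0.52, adjusted p = 0.0463), and edgeR did without any 1 of semaglutide replicates 1, 4 and 5 or vehicle replicate 7 (0.58 to 0.61, adjusted p of 0.0302 to 0.048). At 24 weeks edgeR called it without semaglutide replicate 2 (0.54, adjusted p = 0.0461). Without the 3 libraries numbered apart, the 16-week value was 0.39 (adjusted p = 0.28). Chow reversal livers held 6.69, 8.75 and 9.73 CPM, then 4.74, 7.85 and 11.8 CPM, then 2.28, 7.91 and 9.13 CPM, and differed from vehicle by 0.10, 0.23 and 0.22 (adjusted p of 0.722, 0.421 and 0.429).

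Set against the chow-fed mice at 24 weeks, vehicle livers differed in 6 of the 9 genes (47.7% of all genes), semaglutide livers in 5 (31.3%) and chow reversal livers in 1 (6.64%). These comparisons share the chow-fed mice, so the values are given side by side. Irs1 passed in each. It had 10.2, 12.9 and 17.5 CPM under semaglutide, 4.64, 13.3 and 22.5 CPM after chow reversal and 7.57, 10.8 and 12.5 CPM with vehicle, against 14.9, 19.1 and 26.9 CPM in chow-fed livers, with log2 differences of −0.60 (SE 0.17, adjusted p = 0.00463), −0.53 (SE 0.17, adjusted p = 0.038) and −0.90 (SE 0.18, adjusted p = 1.38e-05). Vehicle and chow-fed livers did not overlap for Irs1 or Insr, as for 22.3% of all genes. The chow reversal difference of Irs1 lost its call without any of 9 livers (chow reversal replicates 4, 6, 7 and 8, chow-fed replicates 1, 3, 5, 6 and 7), with log2 values of −0.41 to −0.54 and adjusted p of 0.0504 to 0.149, and with only the compared groups (−0.53, adjusted p = 0.414).

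**Figure D5:**
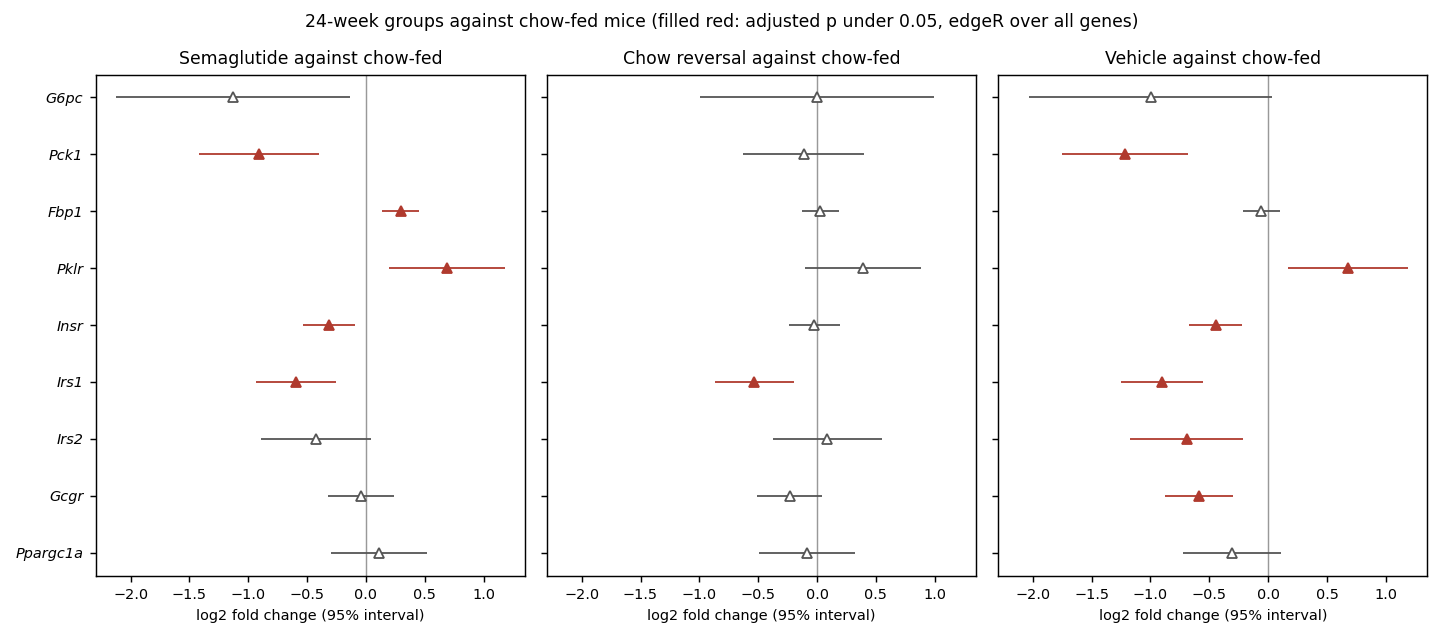
Log2 fold changes with 95% intervals of the 9 genes in semaglutide, chow reversal and vehicle livers of 24 weeks against chow-fed livers. Filled red triangles passed an adjusted p of 0.05, which holds for 5 genes under semaglutide, 1 after chow reversal and 6 with vehicle.

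Pck1 had 1010.4, 2130.3 and 3208 CPM in chow-fed livers, and differed from them by −0.91 under semaglutide (SE 0.26, adjusted p = 0.00441) and −1.22 with vehicle (SE 0.27, adjusted p = 0.000106). After chow reversal it differed by −0.11, with an interval of −0.63 to 0.40. Insr had 87.7, 106 and 117 CPM in chow-fed livers, and differed from them by −0.31 under semaglutide (SE 0.11, adjusted p = 0.0216) and −0.45 with vehicle (SE 0.11, adjusted p = 0.000689), against −0.02 after chow reversal (95% interval −0.24 to 0.19). The semaglutide value of Insr lost its call without any of semaglutide replicates 2 and 4 and chow-fed replicates 2, 5 and 6 (log2 −0.26 to −0.28, adjusted p of 0.0501 to 0.0622), with the slopes as covariates (−0.17, adjusted p = 0.058) and with only the compared groups (−0.30, adjusted p = 0.0509).

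Pklr had 160.2, 177 and 273 CPM in chow-fed livers and was higher than there by 0.69 under semaglutide (SE 0.25, adjusted p = 0.0276) and by 0.68 with vehicle (SE 0.26, adjusted p = 0.0233). After chow reversal it differed by 0.39 (95% interval −0.11 to 0.88). The semaglutide call of Pklr ended without replicate 3 (0.56, adjusted p = 0.082) or replicate 5 (0.60, adjusted p = 0.0635), and the vehicle call ended with the slopes as covariates (0.41, adjusted p = 0.108). Fbp1 had 943, 1044 and 1151 CPM in chow-fed livers and was higher under semaglutide by 0.30 (SE 0.08, adjusted p = 0.00229), whereas vehicle livers differed by −0.06 (−0.22 to 0.10), a value of 0.37 when scaled by library totals (adjusted p = 3.02e-05), where the median of all genes was 0.40.

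Gcgr had 268, 321 and 396 CPM in chow-fed livers and differed from them by −0.04 (95% interval −0.32 to 0.24) under semaglutide, −0.23 (−0.51 to 0.05) after chow reversal and −0.59 with vehicle, of which the last was lower (SE 0.14, adjusted p = 0.000455). With the slopes as covariates semaglutide and chow reversal livers were also lower, by log2 values of −0.31 (adjusted p = 0.000176) and −0.22 (adjusted p = 0.0218). Irs2 had 11.9, 17.6 and 27.3 CPM in chow-fed livers and was lower with vehicle (log2 −0.69, SE 0.24, adjusted p = 0.0141). Without vehicle replicate 3 that value was −0.55 (adjusted p = 0.0535). Under semaglutide Irs2 differed by −0.42 (adjusted p = 0.161), and without semaglutide replicate 7 by −0.61 (adjusted p = 0.0401). G6pc had 42.02, 117 and 353 CPM in chow-fed livers, and differed by −1.13 under semaglutide (SE 0.50, adjusted p = 0.0757) and −0.999 with vehicle (SE 0.52, adjusted p = 0.107), the vehicle value passing with the slopes as covariates (−1.38, adjusted p = 0.0258). Without semaglutide replicate 6 the G6pc value was −1.52 (adjusted p = 0.0192). Ppargc1a differed from chow-fed livers by 0.11, −0.09 and −0.31 in semaglutide, chow reversal and vehicle livers, and none passed. Scaled by library totals, the calls against chow-fed livers ended for Insr, Irs2 and Gcgr with vehicle (log2 −0.02, −0.25 and −0.17), for Insr and Irs1 under semaglutide (−0.12 and −0.40) and for Irs1 after chow reversal (−0.41), with adjusted p of 0.0665 to 0.913 and a median of all genes of 0.40, 0.21 and 0.15. Without the count filter Pklr did not pass with vehicle (0.62, adjusted p = 0.0739) or semaglutide (0.66, adjusted p = 0.0717).

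The wider pathway was read from 9 lists with 169 genes, of which 164 were tested; Glp1r and Gipr, the incretin receptor genes, were among those below the count filter. Against vehicle, semaglutide changed 9 of the 164 at 8 weeks (5.49%, against 5.62% of all genes), 16 at 16 weeks (9.76%, against 12.2%) and 54 at 24 weeks (32.9%, against 24.3%), the last with 29 higher and 25 lower. Chow reversal changed 55 at 8 weeks (33.5%, against 32%), 58 at 16 weeks (35.4%, against 28.1%) and 70 at 24 weeks (42.7%, against 36%). Single lists are described mostly at 24 weeks, and under semaglutide the wider set did not exceed the share of all genes at 8 or 16 weeks. The pyruvate handling, glycogen and glucose transport lists count in these totals and are not described singly. In these lists Mpc2, Ppp1r3c and Slc2a8 in turn had the smallest p in a joint edgeR test of the 3 semaglutide effects (adjusted p = 1.29e-05, 5.87e-05 and 0.00385). Of the 14 tested gluconeogenesis genes, semaglutide livers of 24 weeks had 4 higher and 0 lower, a share near the 24.3% of all genes that changed. These were Fbp1, Mdh1 (malate dehydrogenase), Gpt (alanine aminotransferase) and Slc37a4 (the glucose 6-phosphate transporter). Mdh1 averaged 675 ± 61.04 CPM under semaglutide, against 503 ± 72.8 CPM with vehicle (SD, n = 8 and 7, log2 0.43, adjusted p = 0.000959). After chow reversal, where 36% of all genes changed at 24 weeks, 6 were higher, among them Got1, an aspartate aminotransferase gene (log2 0.69, adjusted p = 0.00433), and 2 were lower, Pck2 and G6pc3, which encode the mitochondrial PEPCK and a widely expressed glucose 6-phosphatase. In these 2 comparisons the 14 genes had median log2 values of 0.25 and 0.27, against −0.01 and 0.04 over all genes, and the 9 lists include the 9 genes.

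Of 25 glycolysis and fructose genes, semaglutide livers of 24 weeks had 4 higher and 9 lower than vehicle livers (24.3% of all genes changed), and chow reversal livers had 1 higher and 15 lower (36%). Their median log2 fold changes were −0.06 and −0.47. The lower genes included Pkm, the pyruvate kinase of non-hepatocyte cells, at 57.001 ± 16.5 CPM under semaglutide and 28.02 ± 12.8 CPM after chow reversal, against 130.2 ± 33.4 CPM with vehicle (SD, n = 8, 8 and 7), with log2 values of −1.19 (adjusted p = 1.64e-06) and −2.21 (adjusted p = 2.83e-15). Hk2, a hexokinase with low expression in normal hepatocytes, was also lower in these comparisons (log2 −1.88 and −1.85). These falls went with lower sums of macrophage and stellate cell markers, and their part in the result was not tested. Among the higher genes, Gckr, the regulatory protein that holds glucokinase in the nucleus, averaged 305 ± 24.3 CPM under semaglutide, 240 ± 27.9 CPM after chow reversal and 204 ± 20.1 CPM with vehicle. Its log2 changes were 0.58 (adjusted p = 5.21e-07) and 0.23 (adjusted p = 0.0243). Of 8 pentose phosphate genes, 5 were lower under semaglutide at 24 weeks (24.3% of all genes changed) and 5 after chow reversal (36%). The 8 genes had median log2 values of −0.43 and −0.57, and Pgd led the lower ones with −1.28 and −1.54.

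Of 30 insulin signalling genes, 4 were higher and 3 lower under semaglutide at 24 weeks, a share near the 24.3% of all genes. Ceacam1, which takes part in insulin clearance by the liver, was higher (log2 0.48, adjusted p = 0.00691), and Grb10 and Ptpn1, whose products restrain the insulin receptor, were lower (log2 −0.73 and −0.40, adjusted p = 0.00885 and 0.0217). After chow reversal 5 of the 30 were higher and 2 lower at 24 weeks, where 36% of all genes changed, with Ceacam1 at 0.93 and Grb10 at −0.86. Of 28 glucagon and cyclic AMP signalling genes, semaglutide changed 0 at 8 and 16 weeks (5.62% and 12.2% of all genes), and Gcgr and Nr4a3 at 24 weeks (24.3%), Nr4a3 being lower (log2 −1.26, adjusted p = 0.0368) at group means under 1 CPM. Chow reversal left Crtc2, a coactivator of CREB, higher at each time (log2 0.41, 0.45 and 0.47). Of 28 regulators and target genes, 9 were higher and 0 lower under semaglutide at 24 weeks (24.3% of all genes changed; median 0.34), among them Igfbp2 (log2 1.12, adjusted p = 6.18e-05), Klf15 (0.78), Mlxipl (0.69) and Hnf4a (0.53). Mlxipl encodes ChREBP, which binds carbohydrate response elements. At 24 weeks 8 of 9 hepatocyte markers were also higher under semaglutide (24.3% of all genes changed) and 7 of 9 after chow reversal (36%).

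Among themselves, Insr and Irs2 were the most alike of the 9 genes (r = 0.75 over 77 mice, 0.69 within groups), and Insr and Gcgr ran against each other within groups (r = −0.56). The genes with the pattern most like Gcgr were Proc, Irf3 and Acbd4 (r = 0.95, 0.93 and 0.93), and those most like Insr were Mgam, March6 and Dpyd (r = 0.87 each). For Irs1 they were Mcc, Slc35e2 and Mug-ps1 (r = 0.77, 0.77 and 0.73), for Irs2 Lrp6, Setd2 and Abca8b (0.79, 0.77 and 0.77), for Fbp1 Hgd, Hpd and Gckr (0.77, 0.71 and 0.70) and for Ppargc1a Slc7a2, Dixdc1 and Slc15a4 (0.70, 0.68 and 0.67). These are Pearson correlations of log2 CPM over mice that share treatment group and library preparation, given as descriptions.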

How the data were processed

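Liver RNA was prepared with a stranded Illumina kit (NEBNext Ultra II Directional) and sequenced on an Illumina NextSeq instrument. Per the submitters' notes the authors used STAR 2.7.3a, Salmon 1.2.0, FastQC 0.11.9, Picard and DESeq2 with GRCm38; the annotation release and strand setting are not given in the sources used here. The authors deposited estimated counts per gene, not normalised, of which 7.55% were fractional; they were rounded to whole numbers. Symbols were matched for 55227 of 55487 gene IDs.

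Groups came from the treatment labels. Genes were filtered by group (filterByExpr), scaled by TMM and fitted for all 77 libraries at once with edgeR 4.0.16 (quasi-likelihood test, robust, two-sided, R 4.3.3), with Benjamini-Hochberg adjustment over 14904 genes and a threshold of 0.05. Fold changes are unshrunk, and SEs follow from the F statistic. The fit was tested on simulated data with known changes, of which the small ones were often missed. Alternatives were DESeq2 1.42.0, RLE factors, library totals, no filter, compared groups only, a block for sets of library numbers, without the 3 libraries numbered apart, and without each of 77 libraries in turn; length and GC slopes as covariates were added later. Replicate pairs all differed beyond sampling noise.

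The 9 genes and the lists were chosen with earlier results of these data known. Named genes are the 9 genes, in each list the up to 4 others with the smallest p in a joint test of the 3 semaglutide effects, the 3 genes with the highest correlation with each of the 9, and members of list counts of 5 or fewer, which were chosen after their values were seen. Promoter sequences are from RefSeq.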

Additional observations from a re-analysis of the deposited data

Results flagged for a closer look

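In 11 of 90 combinations of gene and group, 1 liver stood apart from the rest by Dixon's criterion, applied to CPM. Chance meets it in about 1 in 20 groups of normally distributed values. That rate need not hold for CPM, which were not put on a log scale here. G6pc had a high liver in semaglutide mice of 8 weeks (replicate 5, 387 CPM, next 93.6) and of 24 weeks (replicate 6, 190.4 CPM, next 84.0), and in chow reversal mice of 8 weeks (replicate 4, 302 CPM, next 149.9). Pck1 was high in the same semaglutide liver of 8 weeks (replicate 5, 3065 CPM, next 1347) and in vehicle mice of 24 weeks (replicate 2, 1613 CPM, next 1005). Pck1 was low in chow reversal mice of 16 weeks (replicate 4, 1099.7 CPM, next 1848).

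Pklr was high in chow reversal mice of 16 weeks (replicate 1, 549 CPM, next 322). Insr was low in vehicle mice of 24 weeks (replicate 3, 52.9 CPM, next 76.1), and Irs2 was high in vehicle mice of 16 weeks (replicate 8, 25.4 CPM, next 14.2). Gcgr was high in semaglutide mice of 24 weeks (replicate 2, 504 CPM, next 341) and in chow reversal mice of 24 weeks (replicate 2, 367 CPM, next 282). The reasons for these values were not tested.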

How the results depend on the processing

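Of 30 called log2 fold changes, 30 stayed past the threshold with DESeq2, 29 with RLE factors, 28 without the 3 libraries numbered apart, 27 with a block for library sets, 26 with length and GC slopes, 24 without the count filter, 23 with only the compared groups and 12 with library totals. Library totals moved the median of all genes to between −0.31 and −0.13 against vehicle and to 0.40 for vehicle against chow-fed, and turned the log2 fold change of Fbp1 for chow reversal against vehicle at 8 weeks to −0.0385 (adjusted p = 0.678) and that at 24 weeks, not called before, to −0.22 (adjusted p = 0.0121); relative to those medians all 30 kept their direction, within 0.0496 of the values reported. The larger changes, as a ratio, in the number of the 9 genes called were as follows. Smaller changes are not listed, among them those of chow reversal against vehicle at 24 weeks and of vehicle against chow-fed. Semaglutide against vehicle at 8 weeks (1 called) gave 0 with library totals, without the filter and with the block, 2 with only the compared groups and 4 with the slopes; at 16 weeks (1 called) 0 with library totals and compared groups only and 2 with DESeq2; at 24 weeks (2 called) 1 with library totals and 5 with the slopes. Chow reversal against vehicle gave 5 at 8 weeks with only the compared groups and 0 at 16 weeks with library totals (3 called at each). Semaglutide against chow reversal at 8 weeks (0 called) gave 2 with only the compared groups; at 16 weeks (1 called) 2 with RLE factors, library totals, slopes and DESeq2, and 0 without the 3 libraries and with the block; at 24 weeks (3 called) 1 without the filter and with the slopes and 0 with only the compared groups. Against chow-fed mice, semaglutide (5 called) gave 3 with library totals, and chow reversal (1 called) gave 0 with library totals and compared groups only and 2 with the slopes.

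Leaving out each library in turn gave 0 to 1, 1 to 2 and 2 to 3 genes for semaglutide against vehicle at 8, 16 and 24 weeks, 3 to 3, 2 to 3 and 3 to 5 for chow reversal against vehicle, 0 to 1, 1 to 3 and 1 to 4 for semaglutide against chow reversal, and 4 to 6, 0 to 1 and 5 to 6 for semaglutide, chow reversal and vehicle against chow-fed. No paired analysis was possible because each mouse was sampled once and the labels give the groups no shared replicate numbers. Library numbers run through the groups in sets, which do not pair mice and were fitted as a block; that block ended 3 calls, of Fbp1 (semaglutide against vehicle, 8 weeks) and of Pck1 and Insr (semaglutide against chow reversal, 16 and 24 weeks). Ppargc1a, Irs1 and Irs2 rest on 29 to 626 counts per library. G6pc varied between mice so that its 95% intervals reached about 1 log2 unit on either side, and smaller changes of G6pc were not detectable here.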
